A study of Mus musculus with 40 samples.

Results

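The 10 genes described here encode the enzymes that write DNA methylation (Dnmt1, Dnmt3a, Dnmt3b) and their cofactor Dnmt3l, the enzymes that begin its removal (Tet1, Tet2, Tet3), and proteins that read it (Uhrf1, Mbd1, Mbd2). Their members in the data are the CpG cytosines listed within 5 kb of any annotated transcription start of these genes. There were 207 of them among 400298 listed cytosines, and all 10 genes had at least 1, so 0 genes were without a listed CpG. Each cytosine of a CpG was listed on its own strand. Liver DNA came from 40 male C57BL/6 mice (C57BL/6J per the study's methods) that were 9 weeks old, and was cut with MspI for reduced representation bisulfite sequencing (RRBS), in which bisulfite turns unmethylated cytosines into thymines so that the methylated share of the reads is counted at each CpG. The dams were fed a low fat (LF) or a high fat (HF) diet from before mating, per the study's methods, through pregnancy and lactation. Their sons were fed LF or HF after weaning. This gave 4 groups of 10 mice, named here with the maternal diet first: LF-LF, LF-HF, HF-LF and HF-HF. The labels do not say which mice shared a dam, and per the methods sons of a cage were divided between the diets at weaning. DNA came from whole liver with its mixture of cells.

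DNMT3A and DNMT3B add methyl groups to unmethylated CpGs, DNMT3L helps them without being an enzyme itself, and DNMT1, brought to newly copied DNA by UHRF1, restores the mark after replication. The TET enzymes oxidise the methyl group, which leads to its loss, and the MBD proteins bind methylated CpGs. Genes that all cells use commonly start in CpG islands that carry no methylation, while CpGs inside genes and between them are usually methylated.

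The libraries held between 2969907 and 23345592 reads over the listed CpGs, of which 1257 to 11070 fell on the 207 member CpGs. The median coverage of a member CpG was between 15 and 34 reads, so a value in 1 mouse was a coarse one, with steps of up to 10 percentage points at the minimum of 10 reads. Of the 207 CpGs, 131 had 10 reads in at least 36 mice and entered the main tests. The mouse with the fewest reads was HF-HF replicate 9. Few of the marker genes of liver and other cell types had a listed CpG within 1 kb of a start (3 of 10 for hepatocytes, 1 of 6 for blood and Kupffer cells, 1 of 3 for endothelium). At Hnf4a, a regulator of hepatocyte genes, the 8 listed CpGs were at 20.4% to 31.7%. Most defining markers were thus not measured, and the labelled tissue could only be checked to this extent.

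The sequences of 5 stretches (mm9, 5′ to 3′ on the strand of the gene) show the kinds of sites that were measured. Capitals mark the CpGs that were listed on either strand. The first 3 lie at or near first starts and read near 0% outside CCGG, the fourth is a coding exon just inside the internal start of Tet1-201 and the fifth a coding exon away from any start.

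Dnmt1 first exon and intron, chr9:20757082-20757186, minus strand: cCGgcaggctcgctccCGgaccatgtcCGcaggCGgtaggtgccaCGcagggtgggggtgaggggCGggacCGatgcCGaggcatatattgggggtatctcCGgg
Tet2 just upstream of its first base, chr3:133207355-133207404, minus strand: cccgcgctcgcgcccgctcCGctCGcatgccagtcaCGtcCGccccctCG
Tet3 upstream, chr6:83391710-83391804, minus strand: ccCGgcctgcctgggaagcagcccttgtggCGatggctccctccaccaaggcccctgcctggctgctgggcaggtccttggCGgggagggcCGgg
Tet1-201 coding exon, chr10:62342579-62342630, minus strand: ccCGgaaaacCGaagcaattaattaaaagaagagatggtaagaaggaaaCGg
Dnmt3l coding exon, chr10:77520034-77520077, plus strand: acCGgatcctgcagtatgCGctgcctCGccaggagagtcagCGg

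In the Dnmt1 stretch, the CpGs that lie inside CCGG, the sequence that MspI cuts, read 4.63% ± 5.47 (SD, n = 34 mice) to 6.80% ± 5.94 (SD, n = 37 mice), and the other listed CpGs read 0% to 0.843%. In the Tet3 stretch the CCGG cytosines read 3.22% and 6.52%, and the other CpGs between them 0.173% and 0.239%. The Tet2 stretch has no listed CpG in CCGG, and its 5 CpGs read 0.154% to 1.06%. The Tet1-201 and Dnmt3l stretches were methylated, at 96.6% to 97.8% and 89.7% to 96.7%.

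Across the 10 genes, methylation was split into 2 levels. Of the 207 CpGs, 160 had a mean below 20%, 40 a mean above 80%, and 7 lay between. The most upstream annotated start of a gene, called the first start here, separated them: all 154 CpGs within 1 kb of it read below 20% (highest 8.42%), while of the 53 elsewhere in the windows 40 read above 80% and 6 below 20%. By annotation, 69 member CpGs were intronic, 63 in untranslated exons, 42 in coding exons, 31 upstream and 2 in exons of a non-coding transcript. At 19 CpGs no methylated read was counted in any mouse. These had 646 to 973 reads in all, for which a count of 0 (up to 3 reads) allows 0.308% to 0.464%, counting error only.

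**Figure D1:**
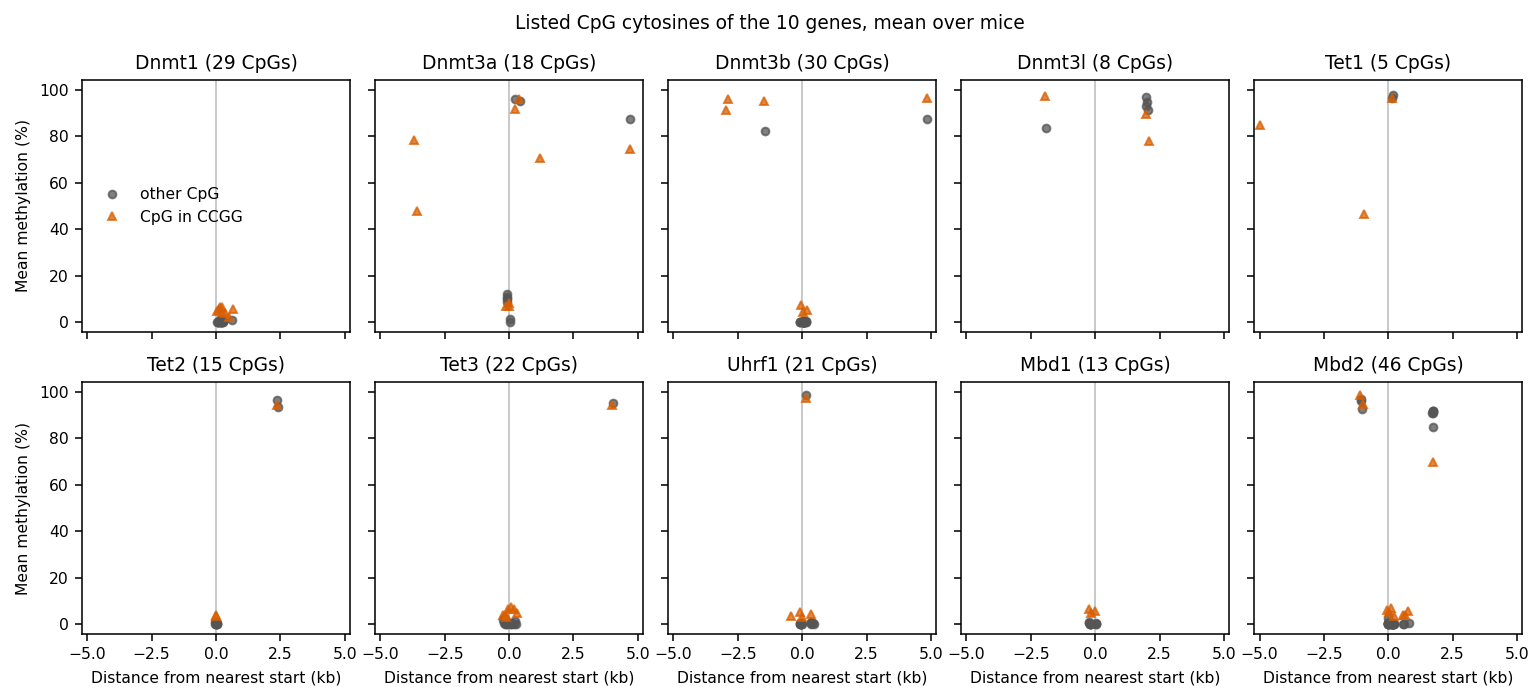
Mean methylation (percent, over the mice with 10 reads) of each listed CpG cytosine against its distance in kb from the nearest annotated start of its gene, with negative values upstream. Triangles are CpGs in CCGG and circles are other CpGs. CpGs at the first starts lie between 0% and 8.42%, Dnmt3l and Tet1 have none there, and most CpGs elsewhere lie above 80%.

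Among the writers, Dnmt1 was listed in its island only. Its 29 CpGs (20 tested) all lay within 1 kb of the start of Dnmt1-201 on chr9 and read 0% to 6.80%. The CpG nearest to the start, 43 bp into the untranslated first exon, read 6.44% ± 2.77 (SD, n = 9) in LF-LF, 4.68% ± 5.71 (SD, n = 10) in LF-HF, 2.60% ± 2.56 (SD, n = 10) in HF-LF and 6.98% ± 5.15 (SD, n = 8) in HF-HF mice. All 4 groups overlapped there. The 21 CpGs of Dnmt1 outside CCGG averaged 0.304% to 0.575% in the 4 groups.

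Dnmt3a had 18 listed CpGs (7 tested), of which 9 read below 20%, 4 between 20% and 80% and 5 above 80%. Near the first start, on chr12, only 3 CpGs were listed, at 0%, 1.30% and 8.42%. The start of Dnmt3a-005, an annotated internal start 85721 bp further into the gene, was covered by 6 cytosines of 1 MspI fragment in an intron, just upstream of it. They read 6.91% to 12.1%. Its sequence is shown because it was, among the starts whose listed CpGs read below 20%, the one at which CpGs outside CCGG were above 3%.

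Dnmt3a-005 upstream fragment, chr12:3891624-3891716, plus strand: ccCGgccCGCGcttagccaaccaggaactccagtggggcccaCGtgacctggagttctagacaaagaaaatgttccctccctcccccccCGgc

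Here the CpGs outside CCGG read 12.1% ± 9.54, 8.92% ± 7.93, 10.96% ± 8.13 and 9.95% ± 7.09 (SD, n = 33 to 35 mice), and the CCGG CpGs at the ends of the fragment 6.93% and 6.91%. The first of them had a median of 11.1% (0% to 20%) in LF-LF, 20.8% (0% to 40%) in LF-HF, 9.09% (0% to 26.3%) in HF-LF and 11.1% (0% to 23.1%) in HF-HF mice, and all groups overlapped. These CpGs had 10 reads in 33 to 35 mice and so were not among the 131 in the main tests. In the alternative that tested every listed CpG they were included, and no member CpG passed there. Deeper in the gene, the CpGs near the annotated starts of Dnmt3a-013 and Dnmt3a-016 read 91.5% to 95.99%, and 3 CpGs in an untranslated exon at the end of the gene 70.5%, 74.3% and 87.5%. Intermediate levels were also found in another intron, where the ends of an MspI fragment read 78.6% ± 11.99 (SD, n = 37 mice) and 47.9% ± 15.4 (SD, n = 33 mice).

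Dnmt3a intron fragment, chr12:3857324-3857433, plus strand: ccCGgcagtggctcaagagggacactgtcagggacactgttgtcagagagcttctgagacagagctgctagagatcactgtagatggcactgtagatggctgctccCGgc

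Dnmt3b had 30 listed CpGs (18 tested). The start of 7530422B04Rik lies 836 bp from its first start. The 24 at its island on chr2 read 0% to 7.46%, and the other 6 read 82.3% to 96.2%, 2 of them about 1.4 kb upstream of the island and 4 in coding exon and intron near internal starts. Dnmt3l, whose product is made mainly in germ cells, had 8 listed CpGs (6 tested) and no listed CpG within 500 bp of any of its starts. All 8 were methylated, at 77.7% to 97.1%. Its first start lies in a CpG-poor stretch (observed over expected CpG of 0.212 within 500 bp, against 0.434 to 0.920 at the 8 genes other than Tet1), so the state of the Dnmt3l start was not measured. The start of Aire lies 230 bp from it.

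Among the erasers, Tet1 had 5 listed CpGs, all tested. Its first start, of Tet1-001 on chr10 (observed over expected CpG of 0.270), had no listed CpG within 500 bp, and the nearest listed CpG, at -4995 bp, read 84.6% ± 8.48 (SD, n = 37 mice). The 3 CpGs 134 to 181 bp inside the annotated internal start of Tet1-201 and Tet1-202 read 96.6% to 97.8%. A single intronic CpG, the most variable one of Tet1, read 46.7% ± 15.5 (SD, n = 36 mice). It averaged 54.8% in LF-LF, 44.2% in LF-HF, 47.2% in HF-LF and 41.0% in HF-HF mice, with SDs of 10.9 to 19.7, and the FDR was 0.808 or higher in each of the 4 comparisons.

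Tet2 had 15 listed CpGs (13 tested), 12 within its island on chr3 at 0.0819% to 3.95% and 3 in a coding exon, 2.4 kb after the start of Tet2-201, at 93.3% to 96.6%. Tet3 had 22 (8 tested), 20 around its start on chr6 at 0% to 7.69% and 2 in a coding exon at 94.2% and 94.95%. The start of B230319C09Rik lies 77 bp from the first start of Tet3, so the 20 CpGs around it cannot be assigned to 1 of these genes.

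Of the readers, Uhrf1 had 21 listed CpGs (8 tested) on chr17. The 19 around its first start read 0% to 5.36%, and the 2 in the exon of the non-coding transcript Uhrf1-007 read 97.2% and 98.7%. Mbd1 had 13 CpGs (7 tested), all within 500 bp of its start on chr18, at 0% to 6.61%. Mbd2, also on chr18, had 46 CpGs (39 tested), the highest number of the 10 genes, in windows of 40149 bp in all. Of the CpGs in the windows, counting both strands as 1, 8.68% had a listed cytosine at Mbd2 and 16.3% at Dnmt1. Its 34 CpGs at the first start read 0% to 7.01% and the other 12 read 69.9% to 98.4%, in 2 clusters near internal starts.

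Within 1 kb of the first starts, the level followed the CCGG sequence. The 35 CpGs in CCGG there read 2.47% to 8.42% and the 119 others 0% to 2.94%, with 1 of the 35 below the highest of the others. Averaged per mouse, CpGs in CCGG read 5.23% ± 1.03 (SD, n = 40) and the others 0.404% ± 0.175 (SD, n = 40), and the former were higher in 40 of 40 mice. The 40 mouse means did not overlap, with 2.93% to 7.44% in CCGG and 0.0584% to 0.834% outside it. The same held over all genes. Of all tested CpGs within 1 kb of any gene's start, the median was 5.95% for the 34058 in CCGG and 0.454% for the 100923 others, and 73.0% of the others but 0.00294% of those in CCGG were below 1%. CCGG (identical on both strands) held 59 of the 207 member CpGs, or 28.5%, against 36.1% of all listed CpGs. A CpG in CCGG lies at the end of the DNA fragment. Whether the library preparation or the trimming of reads contributes to this difference was not tested.

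**Figure D2:**
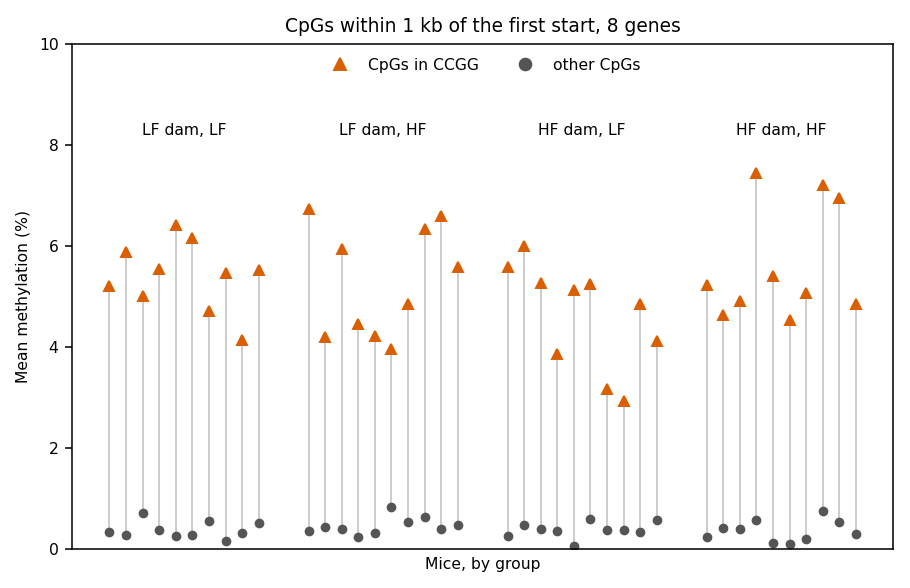
Mean methylation (percent) in each of the 40 mice of the 35 CpGs in CCGG (triangles) and the 119 other CpGs (circles) within 1 kb of the first starts of 8 genes (Dnmt3l and Tet1 have none there), with mice arranged by group, maternal diet first. Triangles lie between 2.93% and 7.44% and circles between 0.0584% and 0.834%, in every group.

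For 50 CpGs in CCGG another listed CpG followed within 50 bases on the same strand. Where these neighbours read at or below 50%, the CCGG CpG was the higher in 33 of 35 cases (median difference 4.58 percentage points), and both exceptions were the ends of the Dnmt3a-005 fragment. Where they read above 50%, it was the lower in 9 of 15 cases, with differences from -20.3 at Mbd2 to 13.5 percentage points at Dnmt3l. The diet comparisons set each CpG against itself, but the level of the CCGG CpGs at the first starts was not the same in all groups. Their mean was 5.41% ± 0.674 in LF-LF, 5.29% ± 1.08 in LF-HF, 4.62% ± 1.04 in HF-LF and 5.62% ± 1.12 in HF-HF mice (SD, n = 10 each). Whether this enters the diet differences at single CCGG CpGs was not tested.

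The study asked whether the maternal diet alters liver methylation in adult sons on the same diet, and the post-weaning diet was compared in the same mice. A two-sided test of the difference of group means on percent methylation was run at every tested CpG of the genome, with Benjamini-Hochberg FDR over all of them. A CpG that had the same percent in every mouse compared, mostly 0%, has no spread and gave no p.

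For the maternal diet in mice fed HF after weaning (HF-HF against LF-HF), 0 of 109 member CpGs with a p passed FDR 5%, as did 0% of the 239809 CpGs of the genome, and 0 had an unadjusted p below 0.05 (3.72% of the genome). The quasi-binomial model of the reads gave 9 of 109 (8.26%, against 10.8% of all CpGs). Differences ran from -6.61 to 7.10 percentage points with a median of -0.17 (all CpGs, -0.15). The smallest FDR was 0.822. The 3 CpGs with the smallest p were in Tet2, Mbd2 and Dnmt1. At Tet2, 25 bp into its untranslated first exon, HF-HF mice read 0% in all 9 mice, and LF-HF mice had a lowest and median value of 0% and a highest of 6.25% (mean 1.73% ± 2.75, n = 9, exact permutation p = 0.206).

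For the maternal diet in mice fed LF after weaning (HF-LF against LF-LF), 0 of 113 member CpGs passed FDR 5% (0% of 240742 in the genome), and 5, or 4.42%, had an unadjusted p below 0.05 (3.99% of the genome), 2 higher and 3 lower in sons of HF fed dams. This count depended on the test: limma on log2 read ratios gave 17 of 131 (13.0%, against 6.14% of all CpGs) and a quasi-binomial model of the reads 18 of 113 (15.9%, against 10.3%), with 0 members past FDR 5% in either. Of these 5, 4 lay in CCGG, which held 39 of the 131 tested member CpGs (29.8%, those without a p included) and 37.7% of all tested CpGs. Of the 9611 CpGs of the genome with such a p, 4434 lay outside CCGG, so most lay in CCGG there too. The 5 member CpGs were in Dnmt3b, Dnmt1, Tet1, Tet2 and Dnmt3a. The smallest p belonged to a CpG upstream of Dnmt3b, at -1476 bp from its first start. It read 75% to 93.5% with a median of 90.0% in 7 LF-LF mice and 90.3% to 100% with a median of 95.8% in 9 HF-LF mice, so the groups overlapped between 90.3% and 93.5%. The means differed by 10.4 percentage points (95% confidence interval 4.72 to 16.2, exact permutation p = 6.99e-04 over n = 9 and n = 7, FDR = 0.818). At the Dnmt1 CpG nearest to the start, HF-LF mice had a median of 2.48% (0% to 6.82%) and LF-LF mice a median of 6.67% (3.23% to 11.1%), a difference of -3.84 percentage points (exact permutation p = 0.00675, FDR = 0.818). At the Tet1-201 exon, a CpG read 98.7% ± 2.48 in 10 HF-LF and 93.9% ± 4.26 in 8 LF-LF mice (exact permutation p = 0.0128, FDR = 0.818).

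For the post-weaning diet in mice born from LF fed dams (LF-HF against LF-LF), 0 of 108 member CpGs passed FDR 5%, while 2 of 238168 CpGs of the genome did (0.00084%). An unadjusted p below 0.05 was found at 3 of the 108, or 2.78%, against 4.03% of the genome, 1 higher and 2 lower in mice fed HF. All 3 lay in CCGG (29.8% of tested member CpGs, those without a p included, and 37.7% of all tested CpGs). Of the 9609 CpGs of the genome with such a p, 4577 lay outside CCGG. The quasi-binomial model gave 12 of 108 (11.1%, against 10.7% of all CpGs). The same upstream CpG of Dnmt3b came first. LF-HF mice read 91.3% to 100% with a median of 100% (n = 10), 11.01 ± 2.59 (SE) percentage points above the same 7 LF-LF mice (exact permutation p = 6.17e-04, FDR = 0.808). Both Dnmt3b differences use these LF-LF mice and are not independent. The HF-HF mice, at 96.9% ± 4.28 (SD, n = 10) and a lowest value of 88.9%, were close to the LF-HF and HF-LF mice. A CpG 39 bp further on, outside CCGG, averaged 78.9% ± 14.5 in LF-LF, 81.7% ± 8.10 in LF-HF, 86.1% ± 8.45 in HF-LF and 82.0% ± 6.94 in HF-HF mice. At Dnmt3l, an intronic CCGG CpG had a median of 76.0% (60.0% to 88.9%, n = 9) in LF-HF and 86.0% (69.7% to 91.7%, n = 8) in LF-LF mice, with overlapping groups (difference -9.96 percentage points, exact permutation p = 0.0408, FDR = 0.808). At Tet3, a CCGG CpG in the intron averaged 4.75% ± 3.29 (n = 9) in LF-HF and 8.41% ± 3.82 (n = 10) in LF-LF mice (exact permutation p = 0.0418).

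For the post-weaning diet in mice born from HF fed dams (HF-HF against HF-LF), 0 of 112 member CpGs passed FDR 5% against 3 of 242393 CpGs of the genome (0.00124%). An unadjusted p below 0.05 was found at 2 (1.79%, against 4.06% of the genome), 1 higher and 1 lower in mice fed HF. Both lay in CCGG (29.8% of tested member CpGs, those without a p included, and 37.7% of all tested CpGs). Of the 9849 CpGs of the genome with such a p, 4356 lay outside CCGG. The quasi-binomial model gave 17 of 112 (15.2%, against 10.9% of all CpGs), above rather than below the share of the genome. A CpG 171 bp into the untranslated first exon of Mbd2 read 0% to 6.67% with a median of 0.847% in 10 HF-HF mice and 4% to 13.04% with a median of 9.09% in 9 HF-LF mice. The groups overlapped, and the difference was -6.31 percentage points (95% confidence interval -9.37 to -3.26, exact permutation p = 9.96e-04, FDR = 0.820). The Dnmt1 CpG nearest to the start was 4.39 percentage points higher in HF-HF than in HF-LF mice (exact permutation p = 0.0351, FDR = 0.820), the opposite of its sign for the maternal diet in mice fed LF, where the same HF-LF mice were compared.

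**Figure D3:**
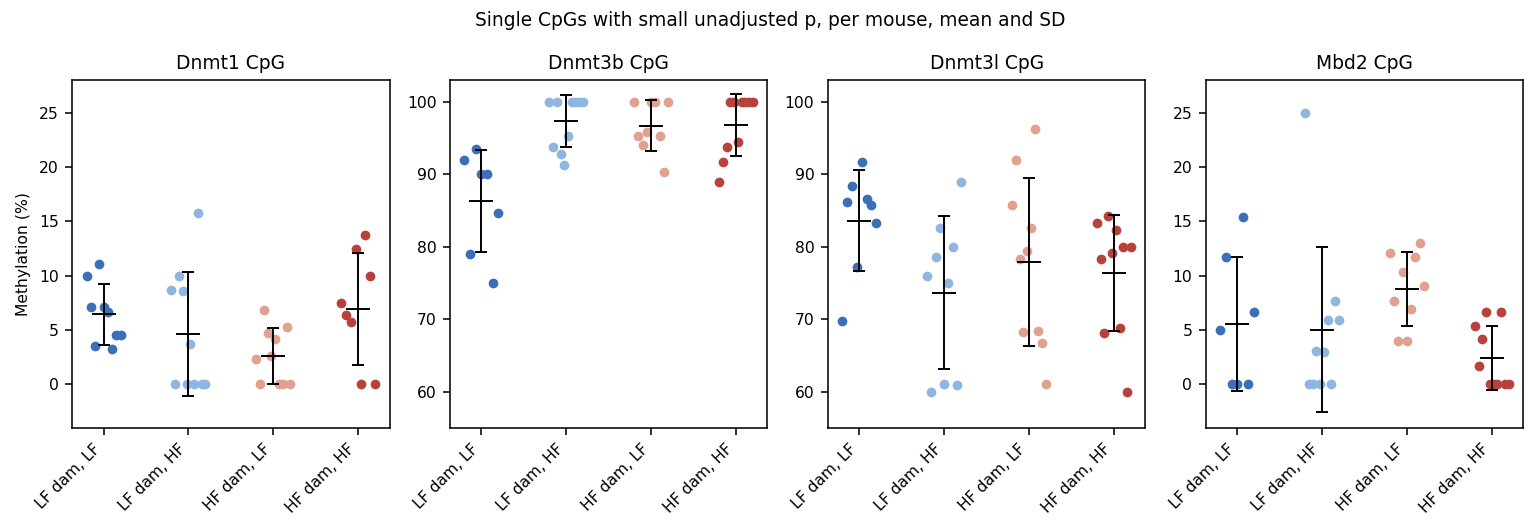
Methylation (percent) in each mouse of the 4 CpGs that were among the first 2 by p in a comparison with an unadjusted p below 0.05, by group with the maternal diet first. Bars are mean ± SD and the vertical ranges differ between genes. The Dnmt3b CpG is lower in the LF-LF mice (mean 86.3%) than in the other groups, and the 2 groups overlap in each comparison given in the text.

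In a model with both diets, 0 of 124 member CpGs passed FDR 5% for the interaction (0% of 254765 in the genome), and 5, or 4.03%, had an unadjusted p below 0.05 (4.18% of the genome). The Dnmt3b upstream CpG was among them, with an interaction of -10.9 ± 3.09 percentage points (SE, FDR = 0.868). For 54 to 64 member CpGs with 10 reads in 33 to 35 mice that gave a p, 0 passed in any of these fits when all listed CpGs were tested. In those fits 1.17%, 2.99%, 2.40%, 2.40% and 3.72% of all member CpGs had an unadjusted p below 0.05, in the order of the text, against 3.63%, 3.82%, 3.88%, 3.97% and 4.02% of all listed CpGs.

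Levels of whole windows were compared as the mean over a gene's tested CpGs of each CpG's deviation from its own mean, added to the mean level, so that a value can pass 100% in a mouse that lacks the low CpGs. Over the mice, the windows of Uhrf1, Dnmt1, Mbd1 and Tet3 averaged 1.42%, 2.07%, 2.16% and 2.17%, those of Tet2, Dnmt3b and Mbd2 22.4%, 26.1% and 28.9%, and those of Dnmt3a, Tet1 and Dnmt3l 49.1%, 85.1% and 90.3%. These levels follow the share of island CpGs that were sequenced, and 15037 gene windows of the genome had a median of 6.27%. Neighbours within the first 4 (1.42% to 2.17%) differed by less than the SD between mice (0.908 to 1.36), and the other steps were larger than it except that between Tet1 (SD 5.78) and Dnmt3l (SD 3.44). Counting reads alone would give an SD within groups of 0.613 at Mbd2, 0.726 at Dnmt1 and 1.02 at Tet2, against 0.894, 0.933 and 0.987 observed.

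No member window passed FDR 5% in any of the 4 comparisons or the interaction, and 0% of all windows did in each. For the maternal diet in mice fed LF, 2 of 10 windows had an unadjusted p below 0.05, against 5.34% of all windows. The Dnmt3a window was at 45.7% to 52.0% (median 48.2%) in HF-LF and 48.5% to 55.5% (median 51.4%) in LF-LF mice, a difference of -3.69 percentage points (95% confidence interval -5.92 to -1.45, permutation p = 0.00324, FDR = 0.770). The Tet2 window was at 21.8% ± 0.967 and 22.7% ± 0.867 (SD, n = 10 each), a difference of -0.93 percentage points (95% confidence interval -1.80 to -0.07, permutation p = 0.0365, FDR = 0.877). For the maternal diet in mice fed HF, the post-weaning diet in sons of LF fed dams, the post-weaning diet in sons of HF fed dams and the interaction, 0 of 10 windows did, against 4.72%, 5.38%, 5.87% and 5.28% of all windows. The Dnmt3a window in sons of LF fed dams differed by -4.58 percentage points (LF-HF minus LF-LF), with an interval that crossed 0 (-9.41 to 0.249) but a permutation p of 0.0217 (FDR = 0.926); LF-HF replicate 10, at 29.2% with reads at 1 of the 7 CpGs, enters this value. With only mice that had reads at 50% or more of the CpGs, the difference was -2.73 ± 1.22 (SE) percentage points with an unadjusted p of 0.0399 (FDR = 0.889), so that 1 of 10 windows was below 0.05 in this comparison, against 5.55% of all windows. Both Dnmt3a window differences, by maternal and by post-weaning diet, use the same LF-LF mice and are not independent. The Dnmt3a window averaged 51.9% in LF-LF, 47.4% in LF-HF, 48.3% in HF-LF and 48.6% in HF-HF mice. Over all 4 comparisons the confidence intervals of the windows of Dnmt1, Dnmt3b, Tet2, Tet3, Uhrf1, Mbd1 and Mbd2 stayed within -2.65 and 3.20 percentage points. Those of Dnmt3a, Dnmt3l and Tet1, with 5 to 7 CpGs each, reached from -9.41 to 6.04 percentage points.

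**Figure D4:**
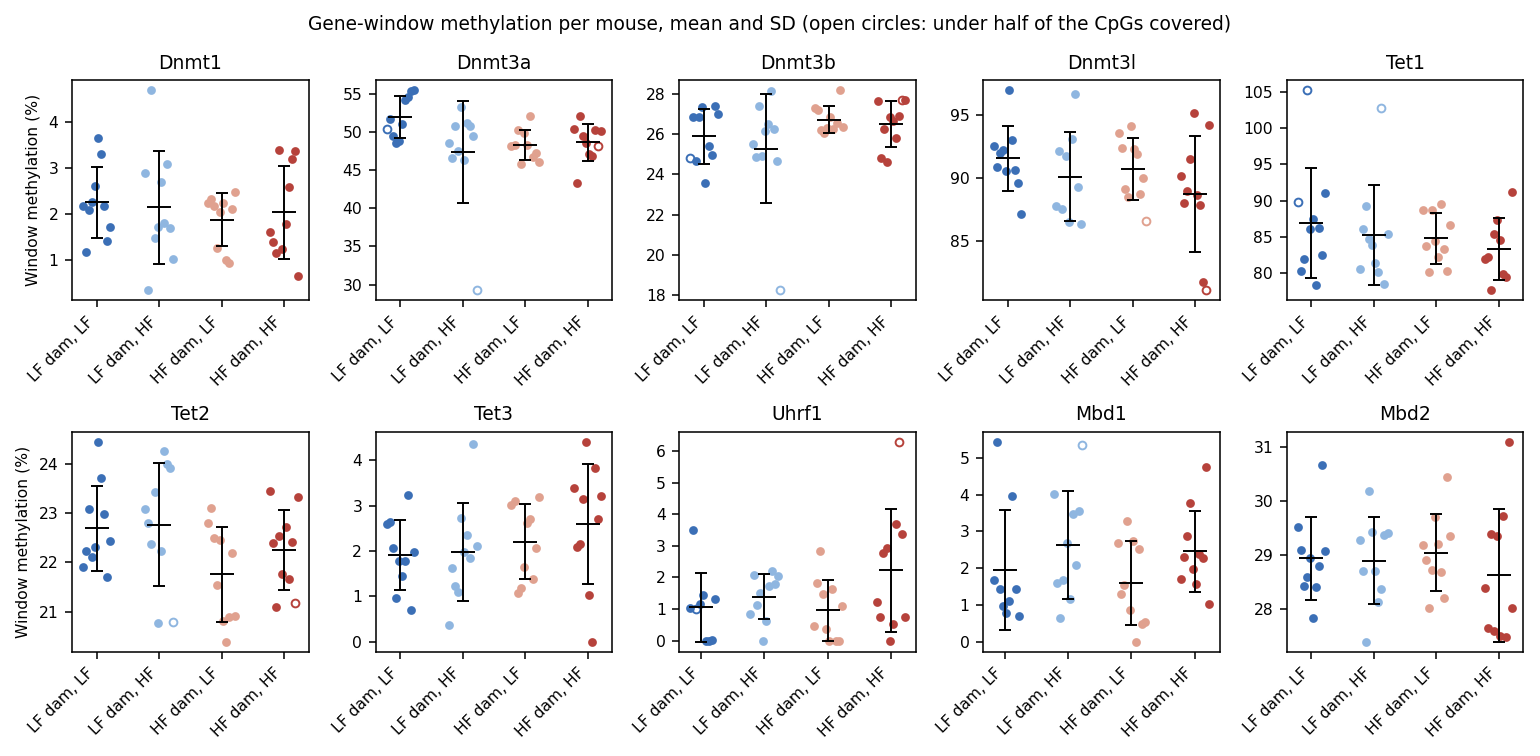
Window methylation (percent) of each of the 10 genes in each mouse, by group with the maternal diet first; bars are mean ± SD, and open circles are mice in which under 50% of the window's CpGs had 10 reads. The vertical ranges differ between genes, and the values farthest from their group at Dnmt3a, Dnmt3b and Tet1 are open circles.

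**Figure D5:**
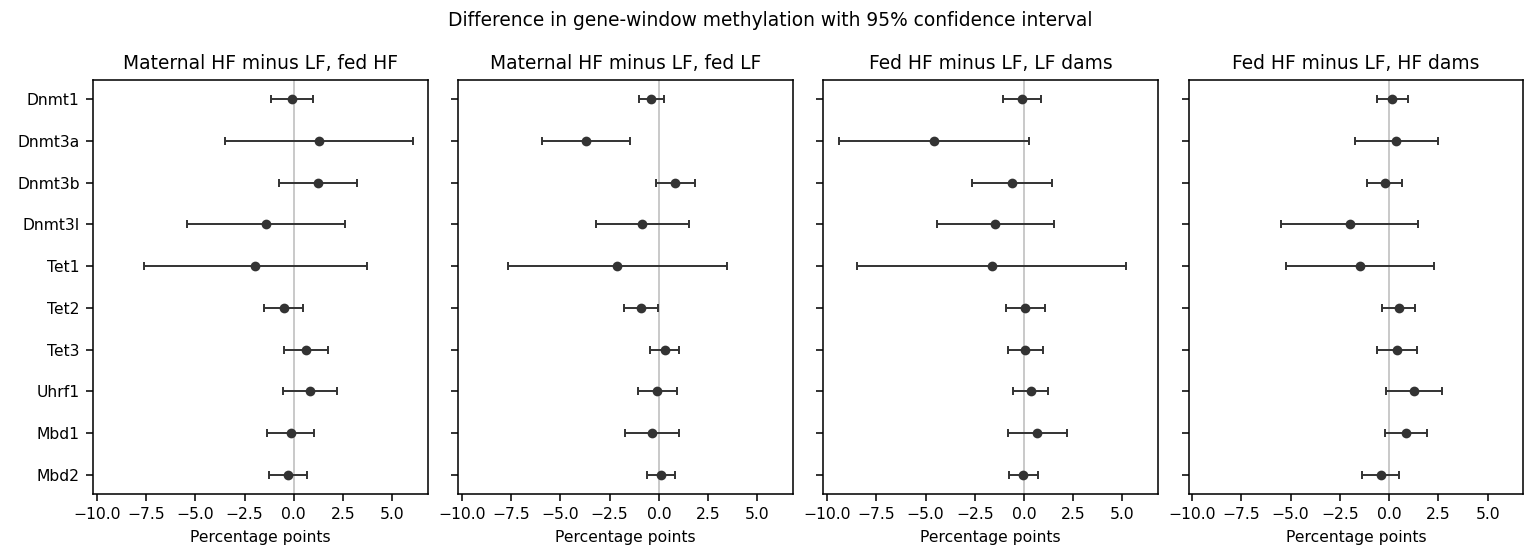
Differences in window methylation (percentage points, HF minus LF) with 95% confidence intervals for the 10 genes in the 4 comparisons. Intervals cross 0 except for Dnmt3a and Tet2 in the comparison of maternal diets in mice fed LF (-3.69 and -0.93), which did not pass FDR 5%.

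Other genes that act on DNA methylation were counted for comparison, from Uhrf2, further MBD and CXXC proteins and base excision enzymes to enzymes of methyl donor supply. Of 32 such genes, 27 had listed CpGs, with 327 tested. In the 4 comparisons 0 of them passed FDR 5%, and 5 to 7 had an unadjusted p below 0.05, which was 1.82% to 2.55% of those with a p, against 3.72% to 4.06% of all CpGs (0% to 0.00124% of which passed FDR 5%). Pcna, the sliding clamp of replication, was at 0% to 6.20% over 12 CpGs, and Mat2a, which makes the methyl donor, at 0% to 6.74% over 36. The median over the listed CpGs was highest at Mbd3 (88.2%), Smug1 (87.5%) and Idh2 (86.0%). Their CpGs ranged from 0% to 98.7%, 32.7% to 97.0% and 0% to 98.4%, so Mbd3 and Idh2 also held unmethylated CpGs.

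The member window with the largest spread between mice was that of Tet1. The windows of other genes most like it over 39 mice were those of Sstr2 (Pearson r = 0.66), 7SK (0.61) and Gm13448 (0.59), as a description, since they share libraries and depth. In the 36 mice with at least 50% of the Tet1 CpGs these were 0.32, 0.43 and 0.37.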

How the data were processed

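RRBS libraries of 40 mouse livers were sequenced, aligned and called by the authors with Bismark on mm9. The deposited table gives, per CpG cytosine and mouse, counts of methylated and of total reads, listed by the authors only at 10 or more reads, and percent methylation was computed from these counts. A second deposited table of percents was not used. Member CpGs and their features were found with GENCODE vM1 and the mm9 genome (pysam 0.24.0). The members and lists were chosen with earlier results of these data known. CpGs with 10 reads in at least 36 mice were tested with two-sided Student's tests (scipy 1.17.1), with Benjamini-Hochberg adjustment over all tested CpGs, and gene windows with at least 3 such CpGs over all windows. Single values were tested with exact permutation tests, or 100000 resamples where both groups had 10 values. Named CpGs were the 3 with the smallest p in each comparison, and for each gene the one nearest to a start and the one with the highest mean. Others were added where described. Alternatives were Wilcoxon, Welch, quasi-binomial and limma 3.58.1 fits, other coverage minimums, windows and strand sums. The tests were tested on simulated data. Reads carry no molecular identifiers, so limits cover counting error only, and replicates are mice whose litters are unknown. All 80 sample columns were matched to labels. Total reads per CpG give the depth.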

Additional observations from a re-analysis of the deposited data

Results flagged for a closer look

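Among 62 groups of values examined (the 10 windows in 4 groups each, and 10 named CpGs in the groups compared, 22 in all), 7 held a mouse whose gap to the next one was large for the range of its group, and chance gives about 1 in 20. In LF-HF, replicate 10 had a Dnmt3a window of 29.2%, with the next mouse at 46.3%, and a Dnmt3b window of 18.2%, with the next at 24.7%. It had reads at 1 of 7 and at 5 of 18 of their CpGs (12 and 64 reads). The Tet1 window was 105% in LF-LF replicate 4 (next 91.0%) and 102.7% in LF-HF replicate 8 (next 89.3%), and each had 2 of the 5 CpGs. At Uhrf1, LF-LF replicate 3 was at 3.51% (next 1.43%) with 8 of 8 CpGs. Among single CpGs, the Mbd2 CpG 897 bp from the first start read 16.7% in HF-HF replicate 5 (next 8.57%, 36 reads), and the Tet1-201 CpG 134 bp from its start 92.3% in HF-LF replicate 9 (next 97.4%, 26 reads).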

How the results depend on the processing

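No member CpG or window passed FDR 5% in 74 of 74 recounts over the alternatives (smallest FDR 0.233). In the alternatives that held members, 0% to 0.00208% of all CpGs and 0% to 0.00792% of all windows passed. At the minimum of 20 reads, which held no member, 1 of 208 windows (0.481%) passed for the maternal diet in mice fed LF. The 12 named differences kept their sign and stayed above FDR 5% in 92 of 92 recounts. Unadjusted p below 0.05 was more frequent in the quasi-binomial fit, at 9, 18, 12 and 17 member CpGs (8.26%, 15.9%, 11.1% and 15.2%, in the order of the text) against 10.8%, 10.3%, 10.7% and 10.9% of all CpGs, and limma gave 1, 17, 5 and 3 (0.763%, 13.0%, 3.82% and 2.29%) against 4.42%, 6.14%, 4.58% and 4.90%. Welch's test gave 0, 5, 3 and 1 (0%, 4.42%, 2.78% and 0.893%) against 3.35%, 3.62%, 3.71% and 3.69%, and the exact Wilcoxon test 0, 5, 4 and 3 (0%, 4.42%, 3.70% and 2.68%) against 3.46%, 3.60%, 3.72% and 3.69%. The minimum of 20 reads in 36 mice left no member CpG and gave no value. Added after seeing the data were fits without CpGs in CCGG (0 of 70, 1 of 74, 0 of 69 and 0 of 73 with such a p, against 2.82%, 3.12%, 3.28% and 3.03% of all CpGs outside CCGG), without HF-HF replicate 9, and with mice holding at least 50% of a window's CpGs. In the last, the Dnmt3a window in sons of LF fed dams differed by -2.73 rather than -4.58 percentage points, and its unadjusted p was 0.0399 rather than 0.0617 (FDR = 0.889). Window levels depended on the CpGs included: only the first start gave 1.34% at Mbd2, 3.24% at Dnmt3a and 0.694% at Tet2, and leaving out CCGG gave 0.363% at Dnmt1 and 0.455% at Mbd1. No paired analysis was run because the labels give no replicate numbers that tie mice of different groups. They give a mouse number, and some neighbouring numbers span both post-weaning diets of 1 maternal diet. Whether such mice were litter mates is not stated. With a median of 20 reads per CpG, single CpGs had wide intervals (-9.37 to -3.26 percentage points at the Mbd2 CpG).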
